A study of Mus musculus with 16 samples.

Results

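The immunoglobulin heavy chain constant genes Ighm, Ighd, Ighg3, Ighg1, Ighg2b, Ighg2c and Igha, together with Jchain, were followed through 16 thymocyte libraries. The genes were picked by mouse symbol, and each of the 8 symbols matched 1 of the 46517 gene identifiers in the deposited tables. Their pattern across the transgenic, knockout-labelled and control groups was already known when they were picked, so levels and fold changes between those groups are a description and carry no p-value. Of the 8 genes, 5 passed the filter on low counts (Ighm, Ighd, Ighg2c, Igha and Jchain), while Ighg3, Ighg1 and Ighg2b did not.

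A B cell first makes IgM, whose mu chain is encoded by Ighm, and IgD, whose delta chain is encoded by Ighd. Class switching cuts out the DNA between Ighm and a downstream constant gene, so that the same variable region is joined to a gamma (IgG), epsilon (IgE) or alpha (IgA) chain, and plasma cells secrete the product. The J chain, encoded by Jchain, links IgM units and IgA units into polymers. T cell precursors do not assemble a complete heavy chain gene, but their heavy chain locus is accessible and can be transcribed through the mu exons from unrearranged or D-to-J joined alleles. A count assigned to Ighm therefore does not by itself tell a mu antibody transcript from such germline transcription, whereas transcripts of a switched isotype are textbook products of B lineage cells. Counts of an IgG gene or Igha do not by themselves show joining to a variable region either, and switched is used here as a name for these genes.

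All libraries were made from total RNA of live CD4+CD8+ thymocytes sorted from NOD mice of 6 to 7 weeks that carry the AI4 T cell receptor of an autoreactive CD8 clone, which all 3 groups share. The groups were 5 NOD-AI4-60A mice (Nfkbid transgenic, 3 males and 2 females), 5 NOD-AI4-Nfkbid-/- mice (labelled as knockouts, 4 males and 1 female) and 6 NOD-AI4 controls (3 males and 3 females). The promoter of the transgene and the allele of the knockout are not given in the labels, and Nfkbid encodes the nuclear IκB protein IκBNS. Nfkbid itself averaged 208.1 CPM (counts per 1000000, on scaled library sizes) in transgenic libraries, 31.6 CPM in knockout-labelled libraries and 32.7 CPM in controls. Its mRNA was thus raised in the transgenic libraries, and the level in knockout-labelled libraries goes against a loss of the transcript, so those libraries are called knockout-labelled throughout. Double-positive thymocyte genes were abundant everywhere, with a summed level of 10 markers of 5178 to 5825 CPM in transgenic, 5297 to 6736 CPM in knockout-labelled and 5010 to 7657 CPM in control libraries. The mouse identifiers of the controls have one prefix and those of both other groups another, and group and identifier series therefore cannot be told apart wherever the controls are one side. Only transgenic against knockout-labelled lies within 1 series. Library totals were 18546570 to 25836799 estimated counts in transgenic and 21662210 to 35637813 in knockout-labelled libraries. In controls the males were also the deeper libraries, with 25052921 to 26586220 estimated counts, against 17955743 to 18888169 in females.

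The 7 heavy chain genes lie in one cluster on the minus strand of chromosome 12 (GRCm38) and are given here in their order from Ighm downstream. Ighm is at chr12:113418558-113422730, Ighd at chr12:113406604-113416324, Ighg3 at chr12:113356224-113361232, Ighg1 at chr12:113325240-113330523, Ighg2b at chr12:113302965-113307933, Ighg2c at chr12:113285325-113288932 and Igha at chr12:113254830-113260236. Jchain lies apart, at chr5:88519809-88527891 on the minus strand. Ighe, the epsilon gene between Ighg2c and Igha, was not among the genes picked and was counted in 2 libraries, with 6 counts in transgenic replicate 5 and 6 counts in knockout-labelled replicate 1.

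The mu chain has 2 ends, and the choice between them separates secreted IgM from the membrane receptor. Both annotated Ighm models share the last bases of constant domain 4, shown in lower case, and then part. The secreted model reads on into a secretory tail, and the membrane model splices to the first membrane exon; these own bases are in capitals. The sequences are those of the GRCm38 reference annotation, coding strand, and not of the NOD mice.
Ighm secreted end: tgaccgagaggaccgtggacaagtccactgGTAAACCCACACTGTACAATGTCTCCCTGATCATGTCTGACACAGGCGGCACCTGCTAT
Ighm membrane end: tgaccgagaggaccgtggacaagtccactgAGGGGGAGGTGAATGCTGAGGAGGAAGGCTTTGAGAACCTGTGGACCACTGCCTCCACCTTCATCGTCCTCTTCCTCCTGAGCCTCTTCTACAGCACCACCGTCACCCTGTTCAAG

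The 4 IgG genes are alike enough that the separation of their counts matters. Their hinge exons, which join the arms of the antibody to its stem, are where the subclasses differ most visibly. In the lines that follow, lower case marks runs of 8 or more bases that a hinge shares with another of the 4, and capitals mark the rest.
Ighg3 hinge: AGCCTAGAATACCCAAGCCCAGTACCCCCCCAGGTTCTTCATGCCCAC
Ighg1 hinge: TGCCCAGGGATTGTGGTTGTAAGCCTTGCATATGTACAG
Ighg2b hinge: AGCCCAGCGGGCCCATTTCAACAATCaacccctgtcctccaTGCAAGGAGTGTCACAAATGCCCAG
Ighg2c hinge: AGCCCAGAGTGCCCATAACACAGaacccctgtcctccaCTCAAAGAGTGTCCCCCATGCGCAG

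Only Ighg2b and Ighg2c shared such a run, of 15 bases. Over the coding sequence of the secreted models, Ighg2b and Ighg2c were identical at 85.9% of aligned bases, the other IgG pairs at 74.8% to 77.4%, and Igha and the IgG genes at 51.5% to 54.6%. No window of 100 bases was shared between any 2 of the 8 genes. The values of Ighg2b and Ighg2c are nevertheless the least certain of the set, since the authors' estimated counts split shared reads between them, as the fractional counts in transgenic replicate 5 show (95.51 for Ighg2b and 90.49 for Ighg2c).

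Ighm was present at a high level in every library and stood about 1.5 times higher in the transgenic ones. It was at 562.1, 567.0, 580.3, 614.4 and 675.0 CPM in transgenic replicates 1 to 5. The knockout-labelled libraries had 375.1, 412.9, 401.9, 351.7 and 419.1 CPM, and the controls 385.7, 393.2, 383.4, 394.7, 397.4 and 447.1 CPM. The transgenic libraries lay above all others, while knockout-labelled libraries and controls overlapped. The fitted log2 fold change was 0.58 (SE 0.06) for transgenic against control, 0.62 (SE 0.06) for transgenic against knockout-labelled and -0.04 (SE 0.06) for knockout-labelled against control. In bulk RNA, more cells of a type and more RNA per cell cannot be told apart, which holds for every level given here.

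**Figure D1:**
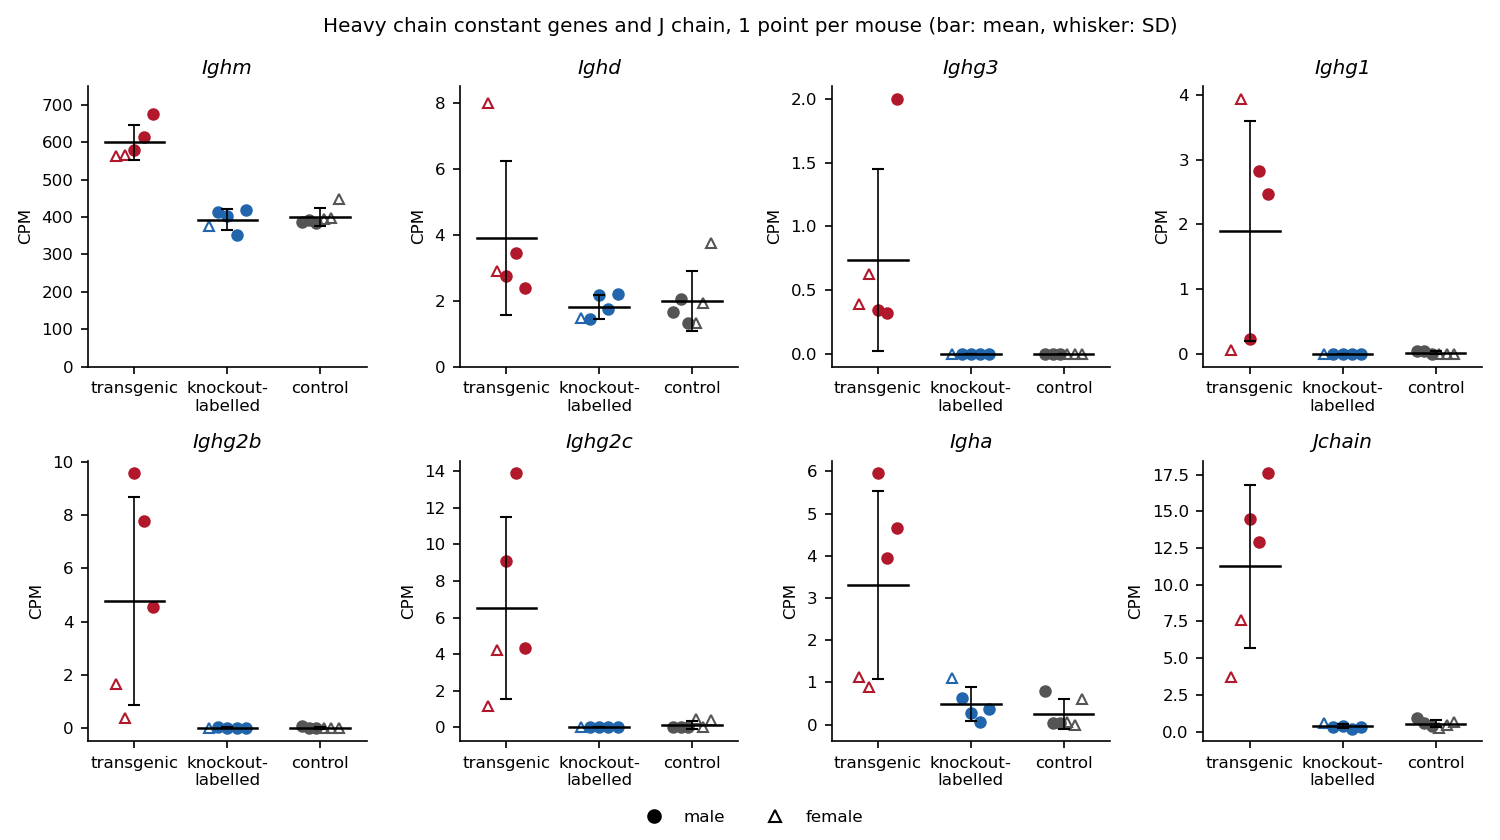
Level (CPM, linear axes, each panel on its own scale) of the 8 genes in each mouse, with transgenic libraries on the left, knockout-labelled libraries in the middle and controls on the right; filled circles are males, open triangles females, bars the mean and whiskers the SD. Ighm lies at 351.7 CPM or more in every library, while no library outside the transgenic group exceeds 0.438 CPM of an IgG gene or 1.10 CPM of Igha.

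In all, 7 of the 8 genes had every transgenic library above every control, the exception being Ighd, and 13.7% of the 14933 tested genes did so too. For Ighg1 the order rests on library size, with 1 count in transgenic replicate 1 and 1 each in control replicates 1 and 2. These were 0.0488, 0.0383 and 0.0370 CPM. That 1 count also sets the lowest transgenic library above the knockout-labelled ones, which had none. Against the knockout-labelled libraries, 7 of the 8 genes did not overlap, the exception being Igha, where 2.32% of tested genes lay wholly higher in transgenic libraries. None of the 8 genes was free of overlap between knockout-labelled libraries and controls in either direction, for which the share of tested genes was 8.78% higher and 5.33% lower. The tested genes do not include Ighg3, Ighg1 and Ighg2b, which the filter removed. The choice of the genes used these groups, so nothing is read from the counts.

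The deposited counts and TPM (transcripts per 1000000 transcripts, a level per transcript length) of a gene together give the mean length of the transcripts to which the counts were assigned, and hence the split between a short and a long annotated model. The split is the authors' estimate from reads and has no error of its own. For Ighm the short model (1493 bases) is the secreted one and the long model (1698 bases) the membrane one. Counts on the secreted model amounted to 343.5, 324.5, 387.0, 411.4 and 486.5 CPM in transgenic replicates 1 to 5. In knockout-labelled libraries they spanned 192.4 to 241.8 CPM, and in controls 214.3 to 236.4 CPM. The lowest transgenic library was therefore above the highest of the other 11. Counts on the membrane model averaged 209.1 ± 21.9 CPM in transgenic (SD, n = 5), 167.7 ± 14.2 CPM in knockout-labelled (SD, n = 5) and 178.0 ± 17.0 CPM in control libraries (SD, n = 6), and the transgenic range of 188.4 to 242.5 CPM overlapped both others. The membrane model held 35.2% of the Ighm counts in transgenic libraries, 43.0% in knockout-labelled libraries and 44.3% in controls. By these estimates the added Ighm counts lay mostly on the secreted model.

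**Figure D2:**
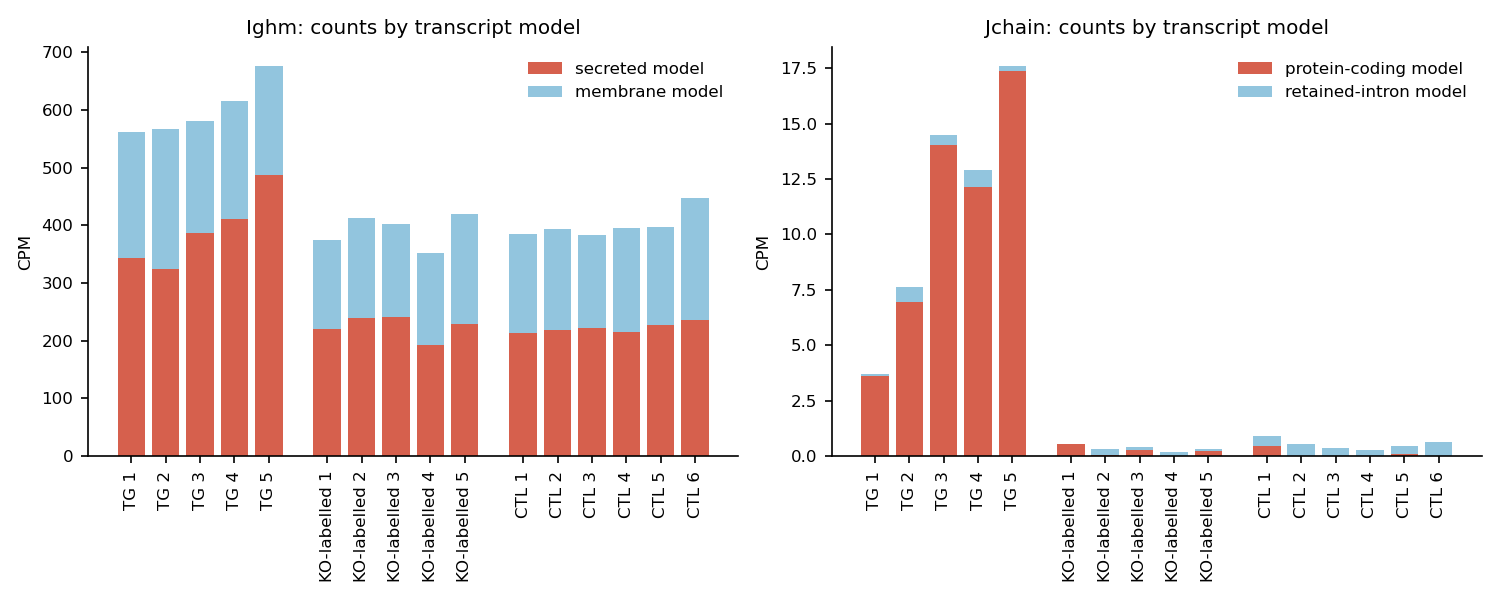
Counts of Ighm (left) and Jchain (right) in each library, in CPM from 0, split by transcript model as implied by the deposited counts and TPM; TG is transgenic, KO-labelled is knockout-labelled and CTL is control, with the replicate number. The secreted Ighm model reaches 324.5 to 486.5 CPM in transgenic libraries against at most 241.8 CPM elsewhere, and the protein-coding Jchain model makes up nearly all Jchain counts in transgenic libraries.

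Ighd, the delta chain gene that mature naive B cells express beside Ighm by alternative processing, was low and less clearly separated. Transgenic replicates 1 to 5 had 8.0, 2.89, 2.74, 3.46 and 2.38 CPM. Knockout-labelled libraries spanned 1.45 to 2.19 CPM with a median of 1.73 CPM, and controls 1.31 to 3.75 CPM with a median of 1.78 CPM. Transgenic libraries overlapped the controls through control replicate 6, and transgenic replicate 1 stood apart within its own group. The log2 fold change was 0.97 (SE 0.29) against control and 0.94 (SE 0.32) against knockout-labelled. It was 0.03 (SE 0.32) for knockout-labelled against control. Nearly all Ighd counts fell on the longer, membrane model, at 97.8% in transgenic, 95.8% in knockout-labelled and 97.9% in control libraries.

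The IgG genes were close to absent outside the transgenic group, and Igha was low there. Ighg3, which encodes a gamma chain typical of responses to polysaccharides, was at 0.390, 0.625, 0.347, 0.319 and 2.00 CPM in transgenic replicates 1 to 5 and had no count in any of the other 11 libraries. Taking 3 counts over the group as the limit that a count of 0 allows, Ighg3 was at least 31.4-fold higher in transgenic than in knockout-labelled libraries and at least 32.5-fold higher than in controls. The transgenic values rest on 80 counts, and replicate 5 alone was far above the other 4.

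Ighg1, which encodes a gamma chain typical of responses with T cell help, ranged from a single count to several CPM within the transgenic group. It had 0.0488, 3.94, 0.217, 2.82 and 2.48 CPM in transgenic replicates 1 to 5, no count in knockout-labelled libraries and 2 counts in all controls together. It was at least 83.2-fold higher in transgenic than in knockout-labelled libraries. Against controls the ratio of pooled levels was 129 (exact 95% interval 35.4 to 1075, counting error only). Transgenic replicate 1 had a single count, close to control replicates 1 and 2 with 0.0383 and 0.0370 CPM.

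Ighg2b and Ighg2c, the genes of the IgG2 subclasses, had the highest mean levels per length of the switched genes. Ighg2b stood at 1.66, 0.391, 9.55, 7.76 and 4.55 CPM in transgenic replicates 1 to 5, against 1 count in the knockout-labelled libraries and 2 counts in the controls. The pooled ratio was 596 (exact 95% interval 106 to 23569) to knockout-labelled and 309 (exact 95% interval 85.0 to 2557) to control libraries. The width of both intervals comes from the few counts below the line.

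Ighg2c was at 1.17, 4.22, 9.08, 13.9 and 4.31 CPM in transgenic replicates 1 to 5. It had no count in knockout-labelled libraries, and in controls it was seen in replicates 4 and 6 alone, at 0.438 and 0.386 CPM. It was at least 271.7-fold higher in transgenic than in knockout-labelled libraries. The fitted log2 fold change to controls was 5.56 (SE 0.97). That value rests on the counts of 2 control libraries. It was 6.53 without control replicate 4, 6.31 without control replicate 6 and 8.28 in the fit with the replicate number as a block.

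Igha, the alpha chain gene of mucosal antibody, was the switched gene with the most counts outside the transgenic group (58 in knockout-labelled libraries and 35 in controls). Transgenic replicates 1 to 5 had 1.12, 0.898, 5.95, 3.94 and 4.67 CPM. Knockout-labelled libraries had 1.10, 0.639, 0.270, 0.0568 and 0.379 CPM, and the controls spanned 0 to 0.804 CPM with a median of 0.0476 CPM. The lowest transgenic library lay below the highest knockout-labelled one, replicate 1. Log2 fold changes were 3.50 (SE 0.83) for transgenic against control, 2.71 (SE 0.80) for transgenic against knockout-labelled and 0.79 (SE 0.95) for knockout-labelled against control. Without control replicate 1 the first was 4.42 and the last 1.69, and without knockout-labelled replicate 1 the second was 3.72 and the last -0.32.

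Summed per length, the 5 switched genes reached 6.36, 14.9, 37.5, 44.3 and 27.9 TPM in transgenic replicates 1 to 5, at most 1.66 TPM in knockout-labelled and at most 1.52 TPM in control libraries. Relative to Ighm this was 1.12, 2.60, 6.23, 6.72 and 3.83 switched TPM per 100 Ighm TPM in the transgenic replicates, 0.0239 to 0.432 in knockout-labelled libraries and 0 to 0.346 in controls. On the CPM scale the transgenic median was 2.67 per 100 Ighm, against 0.0904 in knockout-labelled libraries and 0.0718 in controls. Ighm and the switched genes thus behaved differently outside the transgenic group, where Ighm kept a high level and the switched sum was at most 1.66 TPM.

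The makeup of the switched sum differed from mouse to mouse. In transgenic replicate 2, Ighg1 and Ighg2c held 39.6% and 41.7% of the switched TPM and Ighg2b 3.67%. In replicate 3, by contrast, Ighg1 held 0.895% and Ighg2b 37.8%. Ighg2c held 48.3% in replicate 4, the highest share of any IgG gene in a transgenic library. Igha held 24.9%, 8.61%, 23.8%, 13.9% and 25.6% in replicates 1 to 5, and in knockout-labelled libraries it held 96.4% or more. IgG genes together held 74.4% to 91.4% in the transgenic group. In transgenic libraries the counts of Ighg2c and Ighg3 lay on the secreted model alone, and the membrane model held 2.30% of Ighg1, 0.976% of Ighg2b and 2.26% of Igha counts.

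**Figure D3:**
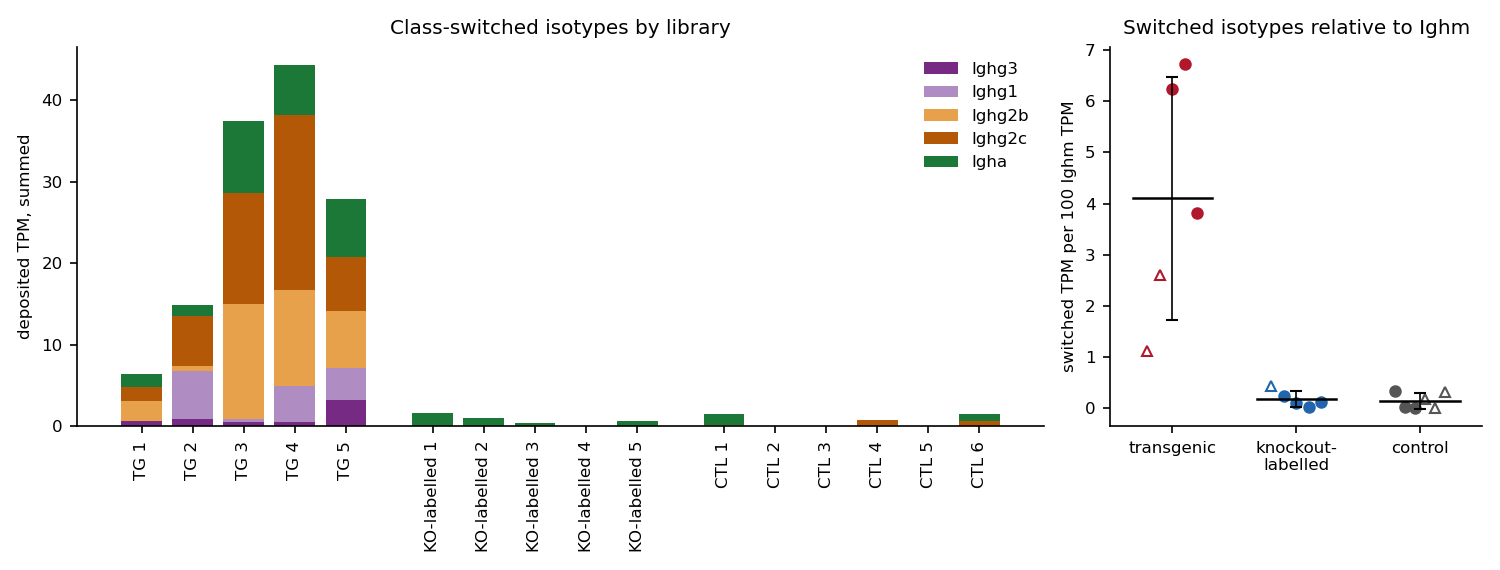
Left, deposited TPM of the 5 switched genes stacked for each library, from 0; right, switched TPM per 100 Ighm TPM for each mouse, with the mean (bar) and SD (whisker), circles for males and triangles for females. The 5 transgenic libraries (TG) reach 6.36 to 44.3 TPM in differing makeup, whereas no knockout-labelled (KO-labelled) or control (CTL) library exceeds 1.66 TPM.

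Jchain, like the IgG genes, was low outside the transgenic group. Transgenic replicates 1 to 5 had 3.71, 7.62, 14.5, 12.9 and 17.6 CPM. The knockout-labelled libraries had 0.552, 0.341, 0.406, 0.199 and 0.337 CPM, and the controls 0.919, 0.563, 0.364, 0.274, 0.481 and 0.662 CPM. No transgenic library overlapped the others. The log2 fold change was 4.23 (SE 0.33) for transgenic against control, 5.01 (SE 0.36) for transgenic against knockout-labelled and -0.78 (SE 0.44) for knockout-labelled against control.

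Jchain has a protein-coding model of 1393 bases and a model of 2341 bases that keeps an intron and has no coding sequence. The intron-keeping model held 3.97% of 1217 counts in transgenic libraries, 40.9% of 45 counts in knockout-labelled libraries and 80.4% of 74.2 counts in controls. By library its share was 1.17% to 8.70% in the transgenic group, 0%, 88.7%, 26.3%, 100% and 24.1% in knockout-labelled replicates 1 to 5, each from 7 to 13 counts, and 48.5% to 100% in controls. The knockout-labelled libraries thus spanned the whole range. On the protein-coding model alone, Jchain averaged 10.8 ± 5.52 CPM in transgenic (SD, n = 5), 0.229 ± 0.223 CPM in knockout-labelled (SD, n = 5) and 0.0984 ± 0.188 CPM in control libraries (SD, n = 6). In 3 of the 6 controls and 1 of the 5 knockout-labelled libraries that model had no count.

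Per length, and so comparable between genes, the order in the transgenic group was Ighm (625.4 ± 68.7 TPM, SD, n = 5), Jchain (13.1 ± 6.76), Ighg2c (9.90 ± 7.71), Ighg2b (7.19 ± 5.86), Igha (5.01 ± 3.42), Ighd (3.57 ± 1.98), Ighg1 (2.94 ± 2.59) and Ighg3 (1.15 ± 1.15). Only the first step, between Ighm and Jchain, was free of overlap; each later neighbour overlapped the next. In knockout-labelled libraries Ighm stood at 416.7 ± 44.2 TPM (SD, n = 5), followed by Ighd at 1.77 ± 0.544, Igha at 0.762 ± 0.604 and Jchain at 0.372 ± 0.191, and Ighd, Igha and Jchain overlapped in turn. In controls Ighm stood at 440.0 ± 17.5 TPM (SD, n = 6), Ighd at 1.95 ± 0.738, Jchain at 0.444 ± 0.247 and Igha at 0.408 ± 0.560. There Ighm and Ighd were each free of overlap with the next gene, and Jchain and Igha overlapped.

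Heavy chain variable segments, which enter a transcript only after V(D)J joining unless transcribed unjoined, were counted beside the constant genes and had no part in picking them. Summed over the 185 annotated Ighv segments, transgenic replicates 1 to 5 had 14.5, 22.0, 45.9, 40.1 and 46.8 CPM. Knockout-labelled libraries spanned 0.0284 to 0.976 CPM and controls 0.121 to 1.61 CPM. In transgenic libraries the counts were spread over 52 to 73 segments, the largest of which held 6.41% to 10.2% of them. Knockout-labelled libraries had counts on 1 to 7 segments and controls on 2 to 9. Related segments can share reads, so the number of segments and the largest share depend on the authors' assignment, and no single segment is named. The D and J segments had no count in any library, including the transgenic libraries with Ighv counts on 52 to 73 segments. Nothing about D or J transcription is therefore read from their absence. Set beside these sums, knockout-labelled and control libraries held 351.7 to 447.1 CPM of Ighm with at most 1.61 CPM of Ighv. Ighm above the control mean amounted to 161.9, 166.7, 180.0, 214.1 and 274.7 CPM in transgenic replicates 1 to 5.

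The light chain genes were not among the 8 genes picked, but their pattern was known when the lists were made. Igkc, the kappa constant gene, had 27.6, 39.95, 74.7, 69.3 and 88.0 CPM in transgenic replicates 1 to 5. Knockout-labelled libraries spanned 0.114 to 1.32 CPM with a median of 0.811 CPM, and controls 0.107 to 2.64 CPM with a median of 0.340 CPM. Of 4 tested light chain and surrogate light chain genes (7 listed), 3 passed edgeR's quasi-likelihood test as higher in transgenic libraries against both other groups, namely Igkc, Iglc1 and Iglc2, where 23.0% of all tested genes rose against control and 1.07% against knockout-labelled (15.6% and 0.0938% fell). These 3 genes were low in the other groups and had been seen to be high in the transgenic one. Nothing is therefore read from the count of calls, and their folds are given as a description. The log2 fold change of Igkc was 6.21 (SE 0.54) against control, 7.27 without control replicate 1, and 6.39 (SE 0.57) against knockout-labelled. For the lambda constant gene Iglc2 it was 6.63 (SE 0.59), 7.85 without control replicate 1, and 5.51 (SE 0.54). For Iglc1, also a lambda constant gene, it was 5.82 (SE 0.72) against control and 5.01 (SE 0.64) against knockout-labelled, 6.27 without knockout-labelled replicate 3. Jchain per 100 Igkc was 4.44 to 6.65 on the TPM scale across the 5 transgenic libraries, although both genes varied several-fold among them.

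B cell identity genes were higher in transgenic libraries too, but did not follow the order of Jchain from mouse to mouse. Of 11 tested B cell genes (16 listed), 8 rose and 0 fell against control, and 6 rose and 0 fell against knockout-labelled, with a median log2 fold change of 1.99 and 1.75, beside 0.03 and 0.00 over all tested genes. The share of all tested genes that rose was 23.0% against control and 1.07% against knockout-labelled. Genes at or near 0 in the other groups entered the fit through the transgenic libraries, so the counts and medians include genes that had to differ. For such a gene the adjusted p is a description as well. Spib and Fcrla rose by 2.74 (SE 0.41, adjusted p = 1.3e-04) and 2.76 (SE 0.45, adjusted p = 2.5e-04) against control, by edgeR, and Fcrla stood at 3.74 without control replicate 1. Fcrla rose by 2.39 (SE 0.46, adjusted p = 0.0118; with males only 2.56, adjusted p = 0.108) and Cd79b, the signalling chain beside Cd79a, by 1.13 (SE 0.20, adjusted p = 0.00596) against knockout-labelled. Cd79a rose by 1.99 (SE 0.40, adjusted p = 0.00117) against control, 1.38 without transgenic replicate 1, and missed the threshold against knockout-labelled at 1.75 (SE 0.43, adjusted p = 0.0613). Pax5, the B lineage factor that plasma cells switch off, had 16 counts in control replicate 1 and at most 6 in every other library outside the transgenic group, so it is described only. Its log2 fold change was 3.21 (SE 0.89) against control, with 5.19 without control replicate 1, 2.33 without transgenic replicate 1 and 1.39 with males only, and 3.16 (SE 1.00) against knockout-labelled. With males alone, 5 B cell genes rose against control and 1 against knockout-labelled. Without the 4 knockout-labelled and control libraries richest in MHC class II, the log2 fold change of Cd79b against knockout-labelled was 1.05 (adjusted p = 0.0782), and with males only 0.82 (adjusted p = 0.0958).

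Transgenic replicate 1 carried much of the B cell signal. It had 7.17 CPM of Cd79a and 5.02 CPM of Pax5, against 0.810 to 2.30 CPM of Cd79a and 0.476 to 1.09 CPM of Pax5 in the other 4 transgenic libraries. It was also the highest in Ighd and yet the lowest in Igkc, Jchain and summed Ighv. Transgenic replicate 5, the highest in Igkc, Jchain and Ighm, was the lowest in Cd79a, Pax5 and Ighd. Between 5 libraries no correlation was computed.

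Genes of antibody secretion moved only in part. Of 15 tested genes (18 listed), 7 rose and 2 fell against control, with a median log2 fold change of 0.11, and 2 rose and 0 fell against knockout-labelled. The 2 that fell were Edem1, at -0.35 (SE 0.08, adjusted p = 0.00192), and Trp53inp1, at -0.39 (SE 0.09, adjusted p = 0.00308). The 18 listed genes summed to 2492 to 2926 CPM in transgenic and 2553 to 3003 CPM in knockout-labelled libraries. Controls stood at 2852 to 3498 CPM. Among all tested genes, 23.0% rose and 15.6% fell against control, and 1.07% rose against knockout-labelled. Mzb1, a chaperone of antibody assembly in the endoplasmic reticulum, had 1.76, 0.976, 1.26, 1.81 and 2.05 CPM in transgenic replicates 1 to 5, against at most 0.199 CPM in knockout-labelled libraries and at most 0.121 CPM in controls. It entered the fit through the transgenic libraries, and its log2 fold change of 4.31 (SE 0.46) against control and 3.61 (SE 0.44) against knockout-labelled is a description. Irf4, a factor of plasma cells and of activated T cells, rose by 1.48 (SE 0.20, adjusted p = 6.3e-05) and 1.85 (SE 0.22, adjusted p = 1.5e-04). Txndc5, an oxidoreductase of the endoplasmic reticulum, rose by 0.42 (SE 0.07, adjusted p = 2.2e-04) against control. Prdm1, which drives plasma cell differentiation, rose by 0.97 (SE 0.30, adjusted p = 0.0168) against control (with males only 1.12, adjusted p = 0.0899) and missed the threshold against knockout-labelled at 0.36 (SE 0.30, adjusted p = 0.848). Xbp1, the secretory factor that thymocytes also express, was at 59.6 CPM in transgenic, 58.2 CPM in knockout-labelled and 55.1 CPM in control libraries, and did not pass the test (log2 0.11 against control, SE 0.06, adjusted p = 0.172). Sdc1, a plasma cell surface marker, averaged 5.75 CPM in transgenic, 12.6 CPM in knockout-labelled and 6.54 CPM in control libraries and did not pass the test (log2 -0.22 against control, SE 0.38, adjusted p = 0.677). Knockout-labelled replicate 4 stood apart at 31.6 CPM, against at most 9.28 CPM in the other 4 of its group.

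**Figure D4:**
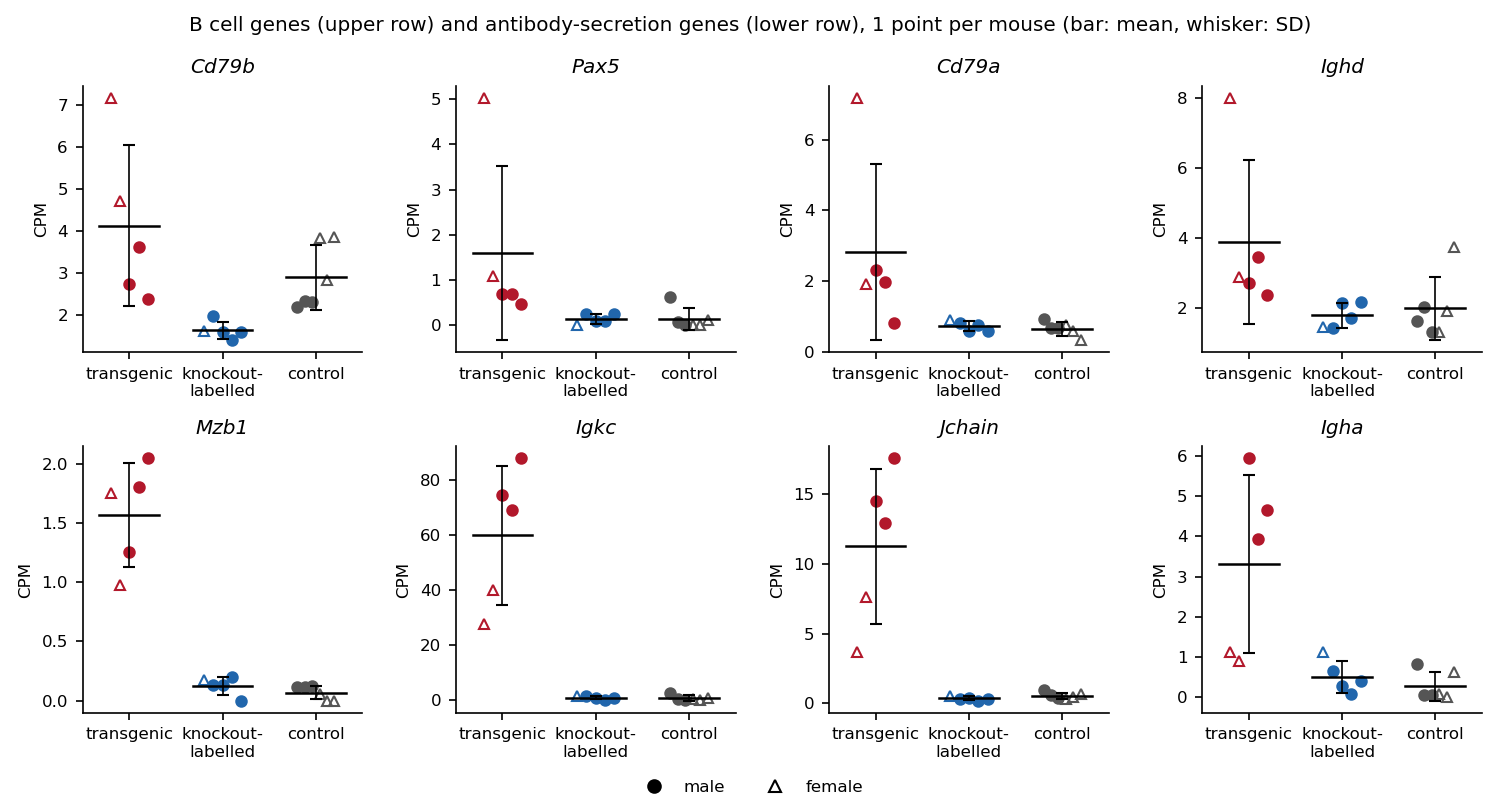
Level (CPM) in each mouse of 4 genes of B cells (Cd79b, Pax5, Cd79a, Ighd; upper row) and 4 of antibody secretion (Mzb1, Igkc, Jchain, Igha; lower row), transgenic on the left, knockout-labelled in the middle, control on the right; bars are means, whiskers SDs, circles males, triangles females. One transgenic female is highest in the upper row (7.17 CPM of Cd79a) and low in Igkc (27.6 CPM) and Jchain (3.71 CPM), but not in Mzb1 (1.76 CPM). Of the lower row only Mzb1 was on the list of secretion genes. Xbp1 and Sdc1 of that list, which did not pass the test, are not shown.

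Most listed genes of class switching and hypermutation serve DNA repair in any dividing cell. Of 12 tested, 6 rose and 4 fell in transgenic libraries against control, 0 rose and 0 fell against knockout-labelled by edgeR (2 at an unadjusted p under 0.05, and 0 by DESeq2), and 6 rose and 0 fell in knockout-labelled libraries against control. Over all tested genes, 23.0% rose and 15.6% fell in transgenic libraries against control. Exo1 rose by 0.68 (SE 0.13, adjusted p = 6.8e-04), Ung by 0.59 (SE 0.13, adjusted p = 0.00178) and Mad2l2 by 0.50 (SE 0.11, adjusted p = 0.00215) in transgenic libraries against control. With males only, Exo1 and Ung were both at 0.51 and no longer called (adjusted p = 0.0894 and 0.102). In knockout-labelled libraries against control, where 16.4% of all tested genes rose, Exo1 rose by 0.71 (SE 0.13, adjusted p = 0.00135) and Ung by 0.61 (SE 0.13, adjusted p = 0.00324), folds that were 0.72 and 0.65 and not called without the 4 libraries richest in MHC class II (adjusted p = 0.0523 and 0.0618). Of 3 tested immunoglobulin receptor genes (9 listed), Fcer1g, the signalling chain of Fc receptors, rose by 3.03 (SE 0.57, adjusted p = 6.6e-04) in transgenic libraries against control, and stood at 3.81 without control replicate 1. All 9 listed genes together reached only 1.19 to 2.73 CPM in controls. Genes of this list may thus have entered the fit through the transgenic libraries. Fcgrt, the neonatal Fc receptor chain, rose by 1.10 (SE 0.41, adjusted p = 0.0413), a call near the threshold that was lost in 16 of the alternative settings at folds of 0.89 to 1.16.

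Markers of other cells moved with the groups, and their part in the immunoglobulin levels was not tested. In transgenic libraries against control, 23.0% of all tested genes rose and 15.6% fell, the shares to set beside the counts that follow. The summed level of 15 B cell genes was 30.1 to 69.4 CPM in transgenic, 21.8 to 32.9 CPM in knockout-labelled and 18.6 to 29.9 CPM in control libraries. That of 10 macrophage genes was 17.3 to 22.8 CPM in transgenic, 4.72 to 12.4 CPM in knockout-labelled and 7.00 to 12.2 CPM in control libraries, and 6 of 9 tested rose and 0 fell against control, among them Adgre1 by 2.41 (SE 0.51, adjusted p = 0.00163), Csf1r by 2.60 (SE 0.65, adjusted p = 0.00576) and Lyz2 by 2.37 (SE 0.59, adjusted p = 0.00635). Csf1r and Lyz2 were at 3.39 and 3.16 without control replicate 1, and at 1.96 and 1.83 and no longer called with males only (adjusted p = 0.105 and 0.146). Macrophage genes that were low in the other groups may likewise have entered the fit through the transgenic libraries. Of 8 tested plasmacytoid dendritic cell genes, 4 rose and 1 fell against control. Lair1 rose by 1.95 (SE 0.28, adjusted p = 1.1e-04), Irf8 by 1.22 (SE 0.17, adjusted p = 1.1e-04) and Siglech by 2.37 (SE 0.48, adjusted p = 0.00131), and Lair1 also rose by 1.55 (SE 0.29, adjusted p = 0.00936) against knockout-labelled, a call lost with males only (1.67, adjusted p = 0.0649) and without the 4 class II-rich libraries (1.86, adjusted p = 0.0567). None of the B cell, macrophage or plasmacytoid genes was at 0 in every library of a group. Of 10 tested double-positive thymocyte genes, 1 rose and 6 fell against control, and Rag1 fell by 0.95 (SE 0.22, adjusted p = 0.00388) and Cd4 by 0.45 (SE 0.09, adjusted p = 8.4e-04) on the log2 scale.

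MHC class II genes, which present antigen on B cells, dendritic cells, macrophages and thymic epithelium, were as high in 3 knockout-labelled libraries as in the transgenic ones. Their summed level was 86.9, 50.5, 63.4, 45.8 and 83.5 CPM in transgenic replicates 1 to 5. It was 75.0, 75.6, 89.96, 6.11 and 7.20 CPM in knockout-labelled replicates 1 to 5, and 3.37 to 22.7 CPM in controls. Knockout-labelled replicates 1 to 3 had 1.27, 1.32 and 0.811 CPM of Igkc, against 0.114 and 0.505 CPM in replicates 4 and 5, and at least 27.6 CPM in transgenic libraries. Their Igha was at 1.10, 0.639 and 0.270 CPM, the first of which lies within the transgenic range, and their Jchain was at most 0.552 CPM. All 5 class II genes rose against control in transgenic libraries, among them Ciita by 1.84 (SE 0.35, adjusted p = 7.1e-04), Cd74 by 2.99 (SE 0.73, adjusted p = 0.00657) and H2-Ab1 by 3.20 (SE 0.81, adjusted p = 0.00796). Cd74 and H2-Ab1 were at 3.65 and 4.14 without control replicate 1, and at 2.35 and 2.69 and no longer called with males only (adjusted p = 0.163 and 0.162). Against control, 23.0% of all tested genes rose in transgenic and 16.4% in knockout-labelled libraries. All 5 class II genes also rose in knockout-labelled libraries, with H2-Ab1 at 3.04 (SE 0.81, adjusted p = 0.0154), H2-Aa at 2.69 (SE 0.74, adjusted p = 0.0182) and H2-Eb1 at 2.70 (SE 0.79, adjusted p = 0.0240). Without the 4 libraries highest in class II among knockout-labelled and control mice, these 3 were at 0.78, 0.16 and 0.35 and no longer called. Without knockout-labelled replicate 1 alone they were at 2.63, 2.39 and 2.35 and just missed the threshold (adjusted p = 0.0605, 0.0675 and 0.0836), and without control replicate 1 at 4.02, 3.38 and 3.47.

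Between knockout-labelled and control libraries the 8 genes showed little. Some B cell and secretion genes were called in each direction, in a comparison where 16.4% of all tested genes rose. Whether these lists were called more often than other genes was not tested, so nothing is read from the number of calls. Of 11 tested B cell genes, 1 rose (Pou2af1, by 0.45, SE 0.10, adjusted p = 0.00489) and 2 fell, Cd79b by 0.59 (SE 0.19, adjusted p = 0.0333) and Ms4a1 by 0.71 (SE 0.24, adjusted p = 0.0362). Pou2af1 was not called with males only (0.32, adjusted p = 0.0700) or without the 4 class II-rich libraries (0.33, adjusted p = 0.122). Both genes that fell were close to the threshold. The call of Cd79b was lost without control replicate 2, 3 or 4 or knockout-labelled replicate 1 or 4 (log2 -0.59 to -0.39, adjusted p up to 0.167), and that of Ms4a1 without control replicate 1 or 2 or knockout-labelled replicate 1, 2 or 4 (log2 -0.71 to -0.59, adjusted p up to 0.0973). Of 15 tested secretion genes, 3 rose and 2 fell, where 10% of all tested genes fell, with Txndc5 up by 0.38 (SE 0.07, adjusted p = 0.00133), Herpud1 up by 0.32 (SE 0.07, adjusted p = 0.00284) and Trp53inp1 down, at -0.41 (SE 0.09, adjusted p = 0.00440). Across all tested genes 26.4% were called in this comparison, 38.6% for transgenic against control and 1.17% for transgenic against knockout-labelled.

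Sex was not used to pick the genes and could be tested. By edgeR, 0 of the 5 fitted genes were called between males and females (1 at an unadjusted p under 0.05, and 0 by DESeq2), with 0.141% of all tested genes called. The log2 fold change, male over female, was 0.80 (SE 0.32, adjusted p = 0.389) for Jchain, which had an unadjusted p of 0.0222, and 0.03 (SE 0.05, adjusted p = 0.885) for Ighm. It was -0.49 (adjusted p = 0.529) for Ighd, 0.83 (adjusted p = 0.800) for Ighg2c and 0.63 (adjusted p = 0.812) for Igha. The Ighg2c value turned to -1.84 by DESeq2 and to -2.73 with the replicate number as a block. Ighg2c had no count in control males or knockout-labelled libraries, so its value rests on the 5 transgenic mice and 2 control females. Within the transgenic group, however, the 3 males lay above both females in Ighm, Ighg2b, Ighg2c, Igha, Jchain and Igkc, and the sexes overlapped in Ighd, Ighg3 and Ighg1. Jchain was at 12.9 to 17.6 CPM in transgenic males and 3.71 and 7.62 CPM in transgenic females. Nfkbid ran the other way, at 114.7 to 194.5 CPM in transgenic males and 239.0 and 309.6 CPM in transgenic females. With 3 males and 2 females an exact two-sided permutation test cannot go below p = 0.2, so these orders were not tested.

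The genes most alike in profile to Jchain, Ighm and Igkc over the 16 libraries were sought among 12641 genes outside the immunoglobulin loci with a mean of at least 1 CPM. Likeness is the mean absolute difference of standardised log2 CPM, 0 for identical profiles. H2-Q7, an MHC class Ib gene, came first for all 3, at 0.243 for Jchain, 0.262 for Ighm and 0.214 for Igkc, with a level of 34.1 CPM in transgenic, 6.84 CPM in knockout-labelled and 6.24 CPM in control libraries. For Jchain it was followed by Nlrc5 (0.266), H2-D1 (0.287) and Gm10499 (0.298). For Ighm it was followed by Pla2g16 (0.269), Inf2 (0.289) and Nfkbid (0.290), and for Igkc by AW112010 (0.241), Cybb (0.244) and Vwa5a (0.275). Such profiles share the step between groups, the libraries and their depth.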

How the data were processed

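RNA of sorted live CD4+CD8+ thymocytes (RNA integrity number above 9) was made into stranded KAPA libraries, 1 per mouse, per the labels' protocols. Bowtie 1.0.0, SAMtools 0.1.18, edgeR 3.24.3 and GRCm38 (mm10) are named in the submitters' processing notes; for the counting program, the sources used here give no name. The authors deposited 2 values per gene and library, an estimated count and a TPM. Of the deposited counts above 0, 58.7% were whole within 1e-06. A GENCODE annotation of GRCm38 gave a symbol for 46005 of 46517 identifiers; the rest held 0.171% of counts.

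Counts were rounded and fitted with edgeR 4.0.16 in R 4.3.3 (filter by group, TMM, robust quasi-likelihood, group and sex, all 16 libraries, 12 residual degrees of freedom). P-values were two-sided and Benjamini-Hochberg adjusted over 14933 genes at 0.05; adjusted p always means this edgeR value. CPM use TMM-scaled library sizes. SE is the log2 fold change over the square root of F. The common biological coefficient of variation was 0.128. The procedure was tested on simulated counts with a single dispersion, where only well-counted genes were changed, so low-count genes were not covered. The bound set on the number of recovered genes was lowered after a first run had missed it. Intervals and limits cover counting error only. Chi-square per degree of freedom between 2 libraries of a group was 4.42 to 77.7. Replicates are separate mice by their identifiers.

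Transcript model shares were solved from deposited counts and TPM with annotated lengths less 99 bases; among single-transcript genes, implied and annotated length agreed within 0.5 bases for 53.4% to 55.3% of them, per library.

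The genes, lists and tests were chosen with earlier results of these data known. Named genes are the 8 members and Ighe, 10 set B lineage and secretion genes, the 3 smallest p-values among called members of each list per group comparison, the 4 most alike profiles and Nfkbid; a few genes that this rule names are not reported here. Fcmr was listed under its older name too, which had no identifier. Alternatives were RLE size factors, library totals, DESeq2 1.42.0, no filter, each library left out, a fit without sex, a fit of males only, a fit of only 2 groups at a time, and a block for replicate number. One was added after seeing the data, leaving out control replicate 1 and knockout-labelled replicates 1 to 3, the libraries of those groups richest in MHC class II.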

Additional observations from a re-analysis of the deposited data

Results flagged for a closer look

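Among 26 sets of values by gene and group, 7 had 1 library far from the rest by Dixon's criterion. Chance gives this in about 1 in 20 sets of normally distributed values, a rate that need not hold for low counts. The Ighg2b sets of knockout-labelled and control libraries had counts in a single library, which meets the criterion whatever its level. In the transgenic group, replicate 1 had 8.0 CPM of Ighd (next highest 3.46 CPM), and replicate 5 had 2.00 CPM of Ighg3 (next highest 0.625 CPM, from 42 counts in replicate 5). In the knockout-labelled group, replicate 2 had 0.0426 CPM of Ighg2b, from 1 count, and the other 4 libraries had none.

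In the controls, replicate 6 was highest in both Ighm (447.1 CPM, next 397.4 CPM) and Ighd (3.75 CPM, next 2.04 CPM). Control replicate 1 had 2.64 CPM of Igkc (next 0.828 CPM) and 0.0766 CPM of Ighg2b from 2 counts, and no other control had an Ighg2b count. The same control had the most MHC class II of its group, at 22.7 CPM, and the most summed Ighv, at 1.61 CPM. Any part of other cells in these values was not tested.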

How the results depend on the processing

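No fitted fold change of the 8 genes between transgenic and either other group changed sign in any alternative run. Genes called numbered 5765 for transgenic against control (3160 with males only, 4687 to 5965 leaving out 1 library), 174 for transgenic against knockout-labelled (342 by DESeq2, 278 with no filter, 106 with males only, 122 to 225 leaving out 1), 3942 for knockout-labelled against control (1438 without the 4 class II-rich libraries, 2863 to 4253 leaving out 1) and 21 for males against females (110 by DESeq2, 13 with the replicate block, 11 without the 4 libraries, 17 to 50 leaving out 1, the highest without transgenic replicate 2). Of the called genes 59.6% were higher in transgenic than in control libraries, and 46.8% with males only. For Ighg2c against control, the log2 fold change was 7.09 by DESeq2, 8.28 with the replicate block and 5.09 to 6.53 leaving out 1; males only gave none, since male controls had no count. For Igha it was 5.63 with the replicate block and 3.13 to 4.42 leaving out 1 against control. Against knockout-labelled it was 3.89 with males only, 4.33 without the 4 libraries and 2.32 to 3.72 leaving out 1. For Jchain against knockout-labelled it was 5.55 with males only and 5.71 without the 4 libraries. Between knockout-labelled and control, Igha was 2.39 (SE 1.09) with the block, -0.20 without the 4 libraries and -0.32 to 1.69 leaving out 1. Jchain was -1.37 (SE 0.60) without the 4 libraries, Ighm was 0.03 with males only, and Ighd was -0.14 with no sex term. The sign of Igha changed between runs, and the SEs of the Ighm and Ighd values leave their sign uncertain. The switched sum per 100 Ighm was 2.22 to 3.50 leaving out 1 transgenic library. Between males and females, 1 member was called with no filter and 0 to 1 leaving out 1 library: Ighg2b, which the filter otherwise removed, at a log2 of 2.86 (adjusted p = 0.0103 with no filter, and called without knockout-labelled replicate 1, 3, 4 or 5). Ighg2c by sex was -1.84 by DESeq2, -2.73 with the block and -0.10 to 1.22 leaving out 1. The cause was not tested for any of these. Same-numbered libraries did not deviate together throughout (correlations -0.088 to 0.273). Such correlations cannot settle whether replicate numbers pair the mice, and the block is only an alternative. Other named genes kept their call and direction in 1568 alternative values, lost it in 93 and gained it in 7; the 3 that turned are those of Ighg2c by sex. Depth limits Ighg3, Ighg1 and Ighg2b outside the transgenic group, where 3 counts or fewer were seen in each.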
